A study of Caenorhabditis elegans with 6 samples.

Results

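The 6 telomere maintenance genes described here are trt-1, pot-1, pot-2, pot-3, mrt-1 and mrt-2 of the nematode Caenorhabditis elegans. They were taken by symbol from a gene table of 46745 genes with a symbol, and all 6 were found and passed the filter on low counts. The libraries hold poly(A)-selected messenger RNA of whole hermaphrodites of mixed stages, embryos, larvae and adults together, grown at 20 °C on OP50 bacteria until the plates were confluent but not starved. The wild-type group is the laboratory strain N2 and the mutant group carries plp-1(ok2155), which the labels name a loss-of-function allele. Each group has 3 libraries, called biological replicates in the labels. Both groups shared stage, food and temperature. The labels name no transgene and no other allele in either group.

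Telomeres are the repeated DNA at chromosome ends. Telomerase, a reverse transcriptase that copies an RNA template, lengthens them, while proteins that bind the single-stranded end control its access and keep repair enzymes away. In C. elegans the loss of telomerase shortens telomeres over generations until the germline fails, the phenotype called mortal germline for which the mrt genes are named. PLP-1, the worm's Pur-alpha-like protein, has been reported to bind nematode telomeric DNA, and the comparison asks whether the messenger RNA of the telomere genes changes without it.

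For none of the 6 telomere genes did the difference between the genotypes pass the test. On the main scale the libraries of trt-1 did not overlap between the groups, as for 5.49% of all tested genes with the mutant below. The nearest libraries were almost level, and the groups overlapped on every other scale tried. All 6 telomere genes had negative log2 fold changes, from -0.51 for pot-2 to -0.10 for mrt-1, with a median of -0.28. Over all 15090 tested genes the median was -0.03 and 52.5% were negative, so a negative sign was also slightly the more frequent one over all genes. The 95% intervals of the 6 fold changes placed the mutant level between 44.7% and 145% of the wild-type level. The lower end is that of pot-2 and the upper end that of mrt-1.

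In the test over all genes (edgeR's quasi-likelihood test, Benjamini-Hochberg adjusted p under 0.05), 0.345% of genes were called. None of the 6 telomere genes was called, none had an unadjusted p under 0.05, where 9.56% of all genes did, and DESeq2, which called 3.73% of all genes, called none either. With the replicate number as a block the share called over all genes was 1.45%, and again no telomere gene was among them. The targeted gene plp-1 stood at 293.3, 430.3 and 379.0 CPM in wild-type, where CPM is a count relative to the library's total after scaling by the trimmed mean of M-values (TMM), and at 20.5, 17.6 and 23.0 CPM in the mutant. Its mutant level was 5.54% of the wild-type level.

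The libraries were deep for genes of this level: totals ran from 39330275 to 53472946 counts, and the 6 telomere genes together held 9546 to 18444 counts per library. Libraries of one genotype differed among themselves. Wild-type replicate 1 lay far from the rest on the second principal component, which held 27.8% of the variance in log2 CPM, at -95.8 against -23.9 to 51.7 for the others, and it had the largest TMM factor, 1.21, where the smallest was 0.848 in wild-type replicate 3. On the first component, with 38.8% of the variance, mutant replicate 3 lay at 2.4, apart from mutant replicates 1 and 2 at 79.0 and 74.2, while the wild-type libraries lay between -69.6 and -33.8. Below, fold changes without 1 of these libraries are given for some of the telomere genes. Ranges with any 1 library left out are given at the end for all 6. For other genes no such fold changes are given. The markers of stages and tissues also varied by library: the summed level of 6 yolk protein genes, made by the adult intestine, ran from 37120 to 159700 CPM in wild-type and from 44680 to 94480 CPM in the mutant.

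The gene trt-1 (gene ID 172688) encodes the telomerase reverse transcriptase, the catalytic subunit without which worm telomeres shorten. Its annotated span on the WBcel235 assembly is 8765745 to 8771251 of chromosome I, plus strand, and its deposited coding models span 8768521 to 8771181. It held 98.9, 119.8 and 89.6 CPM in wild-type replicates 1, 2 and 3, against 88.9, 89.4 and 71.1 CPM in replicates 1, 2 and 3 of the mutant. On this scale every mutant library lay below every wild-type library, but wild-type replicate 3 and mutant replicates 1 and 2 were almost level. The libraries averaged 102.8 ± 15.5 CPM for N2 and 83.1 ± 10.5 CPM for plp-1(ok2155) (SD, n = 3 each), a log2 fold change of -0.31 (SE 0.23, 95% interval -0.82 to 0.21, edgeR adjusted p = 0.726). Of all tested genes 5.49% likewise had every mutant library below every wild-type library. The separation of trt-1 was lost with the size factors of DESeq2, where wild-type reached down to 87.9 CPM and the mutant up to 88.4 CPM. It was also lost with upper-quartile scaling, with unscaled library sizes and in the deposited FPKM, which follows unscaled library sizes closely.

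Exons of trt-1 share 74 annotated bases with pqn-26 on the opposite strand, and no source used here says if the authors counted by strand. With 273 counts over all libraries, pqn-26 was far below the 26508 of trt-1. The transcription factor gene hlh-16 overlaps the annotated span of trt-1 on the opposite strand and shares none of its exonic bases.

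Deposited models split trt-1 into 2 transcripts. The longer, NM_059972, has 1686 coding bases, and the shorter, NM_059973, has 1524 and starts further downstream. The shorter one carried most of the gene: the longer took 4.76%, 5.35% and 5.34% of the gene's FPKM (fragments scaled for coding length and library size) in the wild-type libraries, against 7.32%, 6.31% and 6.70% in the mutant libraries. All mutant shares lay above all wild-type shares. The mean share was 5.15% ± 0.336 in wild-type and 6.78% ± 0.508 in the mutant (SD, n = 3 each), with a two-sided exact permutation p of 0.1, the smallest that 3 libraries against 3 can give. Within the pairs of replicate numbers it was 0.25, the smallest that 3 pairs can give. Both of these tests, and that of the pot-3 shares below, were added after seeing the data. Among 9700 tested transcripts of genes with several transcripts, 12.1% had shares that did not overlap between the groups. By count, the log2 fold change was -0.37 for the shorter transcript (edgeR adjusted p = 0.73 over all transcripts) and 0.05 for the longer (0.986). No transcript of the 6 genes was called in that test, which called 0.0584% of 20551 transcripts, nor by DESeq2, and none had an unadjusted p under 0.05. A share within a gene does not depend on how libraries are scaled, but it does depend on how reads common to both models were divided, and the longer model rested on 176 to 335 estimated counts per library.

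**Figure D1:**
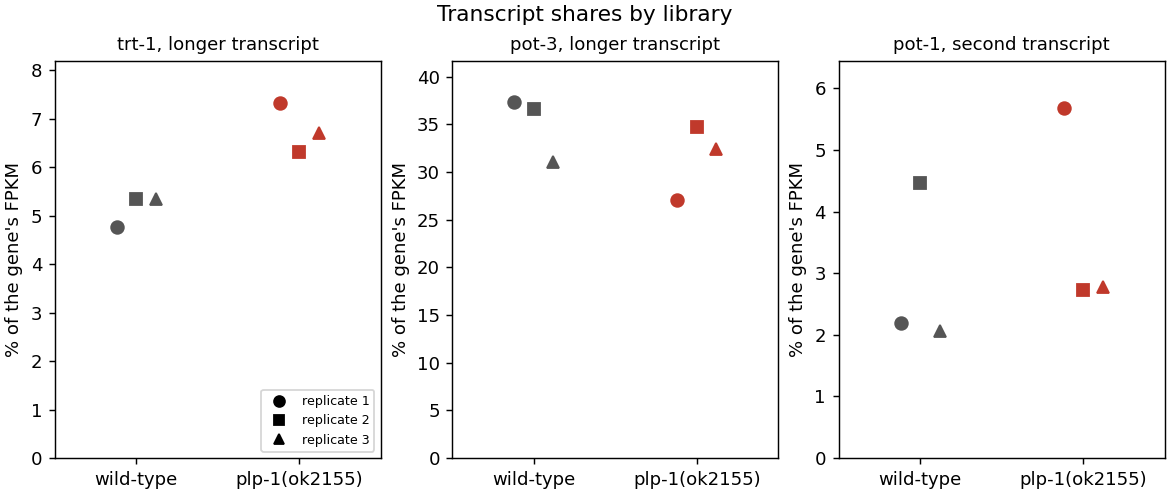
Share of a gene's FPKM, in percent, assigned to 1 of its transcripts in each library, for the longer transcript of trt-1, the longer of pot-3 and the second of pot-1; symbols mark replicates, grey is wild-type and red plp-1(ok2155). For trt-1 the mutant libraries lie between 6.31% and 7.32% and the wild-type libraries between 4.76% and 5.35%, and for pot-3 and pot-1 the groups overlap.

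The 3 pot genes encode homologues of Protection of Telomeres 1, each with an oligonucleotide-binding fold of the kind that grips single-stranded telomeric DNA. In C. elegans POT-1 and POT-2 hold telomerase back, and animals without either have long telomeres. POT-2 binds the G-rich strand and POT-1 the C-rich strand of the telomere.

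The gene pot-2 (gene ID 175110; chromosome II, plus strand, 14524173 to 14525108) had the most negative log2 fold change of the 6. Its levels were 44.8, 87.6 and 77.0 CPM in the wild-type libraries, against 49.8, 47.8 and 49.9 CPM in the mutant libraries. Wild-type replicate 1 was the lowest of all 6, so the groups overlapped, while the other 2 wild-type libraries lay well above the mutant ones. The mutant libraries lay close together, at 49.2 ± 1.18 CPM, against 69.8 ± 22.3 CPM in wild-type (SD, n = 3 each). The log2 fold change was -0.51 (SE 0.29, 95% interval -1.16 to 0.15, edgeR adjusted p = 0.639). Without wild-type replicate 1 it was -0.75 with an adjusted p of 0.279.

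The gene pot-1 (gene ID 181894; chromosome III, minus strand, 7131880 to 7133678) followed the same pattern by library. It stood at 31.9, 56.7 and 48.1 CPM in the wild-type libraries, against 31.2, 34.6 and 37.4 CPM in the mutant libraries. Again wild-type replicate 1 was level with the mutant and the other 2 wild-type libraries were above every mutant library. The means were 45.6 ± 12.6 and 34.4 ± 3.09 CPM, and the log2 fold change was -0.40 (SE 0.28, 95% interval -1.06 to 0.25, edgeR adjusted p = 0.71). Without wild-type replicate 1 the value moved to -0.61 (adjusted p = 0.387), and without wild-type replicate 2 to -0.26 (0.809).

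How a library's size was defined decided whether pot-1 and pot-2 overlapped between the groups. With total counts in place of TMM, pot-2 had at least 54.1 unscaled CPM in every wild-type library and at most 51.5 in the mutant ones. For pot-1 those limits were 38.6 and 37.3, so that neither gene overlapped, as for 4.67% of all genes with the mutant below on that scale. In the deposited FPKM they did not overlap either, as for 4.65% of all genes. That is no separate evidence, since FPKM follows total counts closely. Both scales gave the same number of library pairs with the mutant lower for each telomere gene. With total counts the log2 fold changes were -0.44 for pot-2 and -0.35 for pot-1, with edgeR adjusted p of 0.74 and 0.838. The comparisons of overlap under other scales, for these genes and for trt-1, were chosen after seeing the data. The main transcript of pot-1, of 1203 coding bases, took 94.3% to 97.9% of its FPKM. A second of 1140 bases took 2.06% to 5.68% with overlapping groups. The third model, of 462 bases, held 2 counts over all libraries, at most 1 in any library, and was not tested.

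Annotated exons of pot-1 share 177 bases with viro-2 on the opposite strand. That gene held 9.80, 6.79 and 15.8 CPM in wild-type and 2.25, 4.27 and 8.21 CPM in the mutant, and its log2 fold change was -1.14 (edgeR adjusted p = 0.576). It held 2139 counts over all libraries against 11053 for pot-1. Both genes had negative values, and the part of reads in the shared bases was not tested.

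The third homologue, pot-3 (gene ID 181793; chromosome III, plus strand, 13780215 to 13781133), was the lowest of the 6 in counts, with 4966 in all. It had 15.5, 21.8 and 20.8 CPM in the wild-type libraries, against 16.0, 18.5 and 14.2 CPM in the mutant libraries. The groups overlapped, with wild-type replicate 1 once more below its own group. The log2 fold change was -0.25 (SE 0.30, 95% interval -0.94 to 0.45, edgeR adjusted p = 0.838), and without wild-type replicate 1 it was -0.39 (0.574). Its 2 transcripts, of 636 and 648 coding bases, were both well read: the longer took 31.1% to 37.3% of the FPKM in wild-type and 27.1% to 34.7% in the mutant (two-sided exact permutation p = 0.3).

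**Figure D2:**
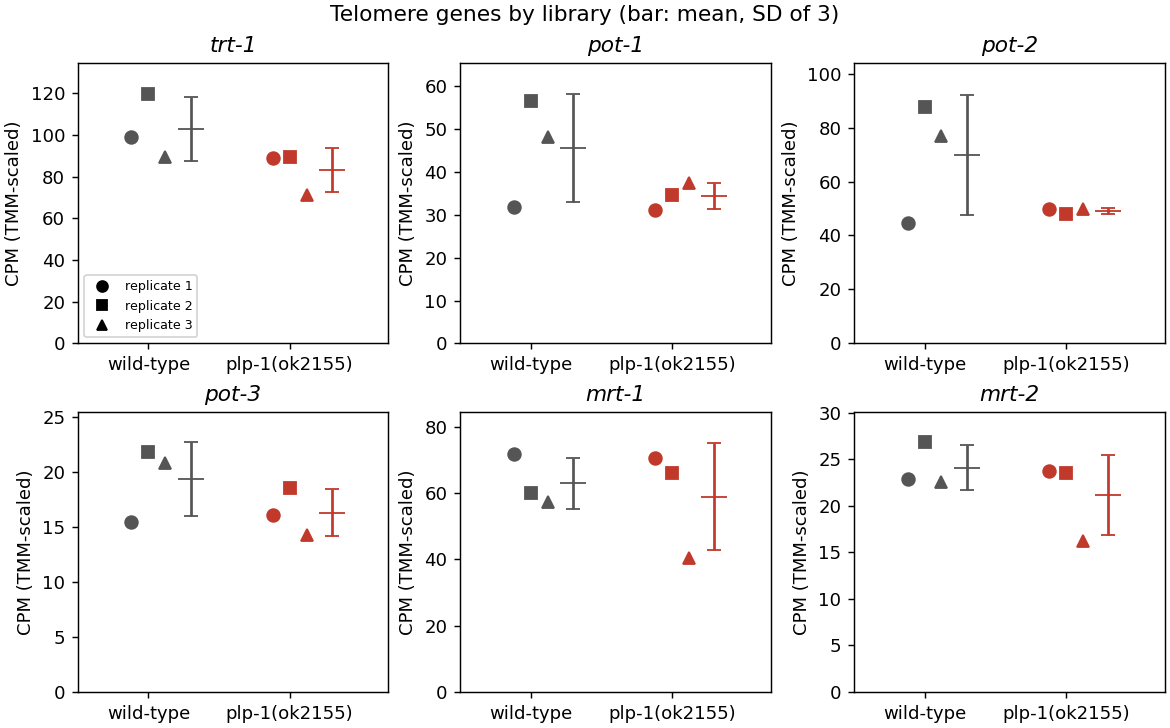
TMM-scaled CPM of the 6 telomere genes, 1 panel a gene, with the libraries of wild-type in grey and of plp-1(ok2155) in red; symbols mark replicates and bars give the mean with the SD of 3 libraries. Wild-type replicate 1 lies at or near the mutant level for pot-1 and pot-2, and mutant replicate 3 is the lowest library for mrt-1 and mrt-2, at 40.4 and 16.3 CPM.

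The mrt genes act with telomerase from other sides. MRT-1 joins a POT1-like DNA-binding fold to a nuclease domain of the SNM1 family and is needed for telomerase to work in the animal. MRT-2 is the homologue of RAD1, a subunit of the ring-shaped 9-1-1 clamp that marks damaged DNA for the checkpoint, and its loss shortens telomeres.

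The gene mrt-1 (gene ID 172666) lies on the plus strand of chromosome I from 8660831 to 8663105, and 102639 bases separate its end from the start of trt-1. Its levels were 71.7, 59.9 and 57.2 CPM in the wild-type libraries, against 70.4, 65.9 and 40.4 CPM in the mutant libraries. Mutant replicates 1 and 2 were at or above most wild-type libraries and mutant replicate 3 was clearly below. The log2 fold change was -0.10 (SE 0.27, 95% interval -0.72 to 0.53, edgeR adjusted p = 0.942). It turned to 0.03 without mutant replicate 3 and to 0.001 without wild-type replicate 1, so that its sign rested on single libraries. It shares 61 exonic bases with syp-3, a gene of the synaptonemal complex on the opposite strand, whose log2 fold change was -0.04 (adjusted p = 0.978).

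The gene mrt-2 (gene ID 176608) lies on the plus strand of chromosome III from 11746766 to 11750175. It stood at 22.9, 26.9 and 22.6 CPM in wild-type and at 23.8, 23.5 and 16.3 CPM in the mutant. Mutant replicate 3 was again the lowest library, and the groups overlapped. The log2 fold change was -0.19 (SE 0.29, 95% interval -0.85 to 0.48, edgeR adjusted p = 0.873), and it was -0.10 without mutant replicate 3 (adjusted p = 0.862).

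**Figure D3:**
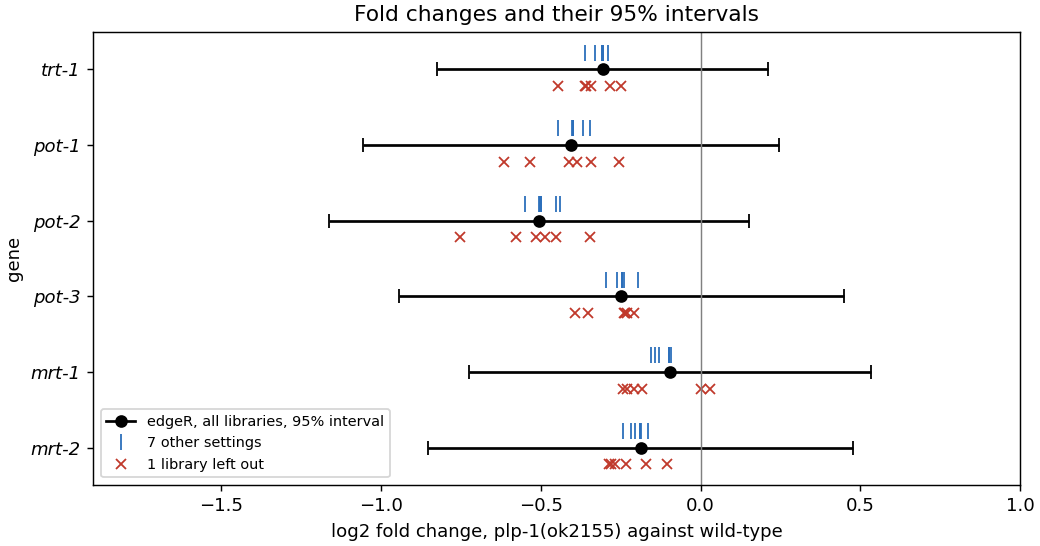
Log2 fold change of each telomere gene, plp-1(ok2155) against wild-type, with its 95% interval from edgeR (black), the values under 7 other settings (blue ticks) and those with 1 library left out (red crosses). Every interval includes 0, and the values of mrt-1 reach 0.03 where a library is left out while those of the other 5 genes remain negative.

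Per coding length, pot-2 and trt-1 were the most abundant telomere transcripts. In deposited FPKM, pot-2 averaged 85.4 ± 18.5 in wild-type and 63.1 ± 2.19 in the mutant, and trt-1 64.3 ± 14.6 and 52.7 ± 8.08 (SD, n = 3 each). The other 4 genes averaged 28.3 to 35.3 FPKM in wild-type and 24.8 to 31.4 FPKM in the mutant. The telomerase messenger was not rare among worm transcripts: 82.3% of the 18370 protein-coding genes with any count had a lower mean FPKM than trt-1, 85.9% had a lower one than pot-2, and for the other 4 the figure was 70.5% to 73.2%.

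The ranges of trt-1 and of the next gene down did not overlap in either group. The order of pot-1, mrt-1, mrt-2 and pot-3 was not resolved in either group, as each neighbouring pair had overlapping ranges. Between pot-2 and trt-1 the ranges overlapped in wild-type, where trt-1 exceeded pot-2 in replicate 1, and did not overlap in the mutant.

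**Figure D4:**
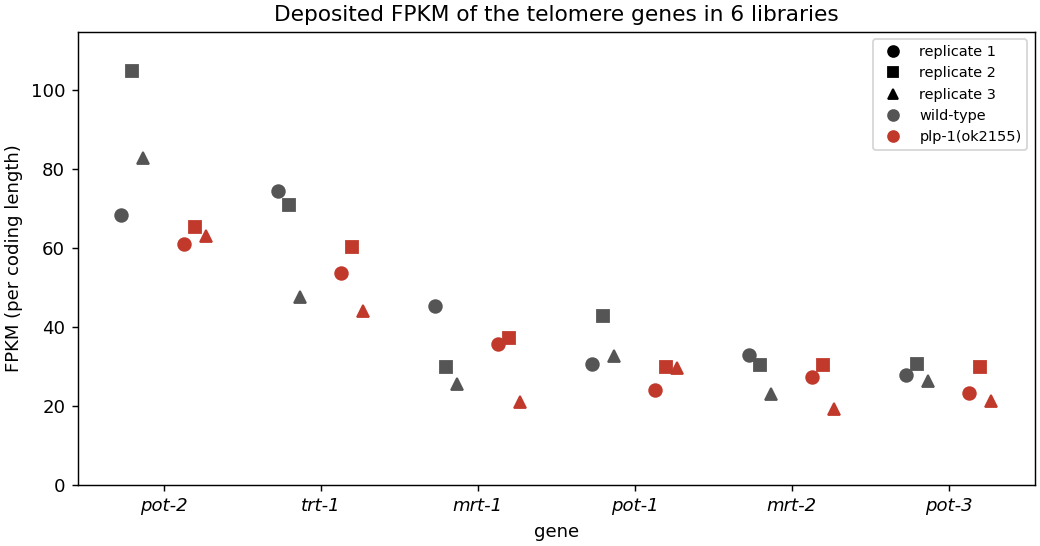
Deposited FPKM of the 6 telomere genes in each library, ordered by their mean; grey is wild-type, red plp-1(ok2155), and symbols mark replicates. Within each genotype pot-2 and trt-1 lie above the other 4 genes, whose neighbouring ranges overlap, and in wild-type replicate 1 trt-1, at 74.5 FPKM, is above pot-2, at 68.3 FPKM.

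Ratios between 2 genes of the same library do not depend on its size, and they were taken for all 15 pairs of telomere genes. The 2 pairs with the steadiest ratio, chosen after their values were seen, were trt-1 with mrt-2 and pot-1 with pot-2. The FPKM of trt-1 was 1.96 to 2.34 times that of mrt-2 in all 6 libraries, and the FPKM of pot-1 was 0.393 to 0.472 times that of pot-2. The ratio of pot-2 to mrt-1 was the least steady, at 1.51, 3.53 and 3.26 in the wild-type libraries, against 1.71, 1.75 and 2.99 in the mutant libraries. Wild-type replicate 1 and mutant replicates 1 and 2 were low in it and the other libraries high, which is not the division by genotype. None of the 15 ratios separated the groups.

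The spread of the telomere genes between libraries was set beside that of 4148 genes with a mean of 17.8 to 92.9 CPM. These form a single band, not matched to each gene's own level. The coefficient of variation among wild-type libraries ran from 9.88% to 32.0% with a median of 16.3%. The median of the band was 24.4%, and 4 of 6 lay below it. Among mutant libraries it ran from 2.40% to 27.5% with a median of 12.9%, where that median was 22.7%, and 5 of 6 lay below it. By definition as many genes of the band lie below its median as above it, and whether the 6 genes differ from them was not tested.

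Markers of the germline, the tissue in which telomere length is inherited, had mostly positive log2 fold changes, unlike the telomere genes. The summed level of 15 germline genes was 2313, 2407 and 2211 CPM in the wild-type libraries, against 3526, 2791 and 2534 CPM in the mutant libraries. The groups did not overlap in it, and 11 of 15 log2 fold changes were positive, with a median of 0.31. No gene of it was called by edgeR or DESeq2, and 1 was higher at an unadjusted p under 0.05. Oocyte markers summed to 4938, 3498 and 3173 CPM in wild-type and to 8032, 5615 and 3156 CPM in the mutant, with all 12 log2 fold changes positive, none called by either tool and 1 at an unadjusted p under 0.05. The 16 sperm markers summed to 8.39, 5.12 and 12.02 CPM in wild-type and to 55.3, 66.4 and 23.3 CPM in the mutant; edgeR called none of 14 tested, DESeq2 called 11 higher, and 13 were higher at an unadjusted p under 0.05. Embryo markers summed to 21.4 to 23.7 CPM in wild-type and 15.3 to 31.2 CPM in the mutant, of which elt-7 (log2 fold change -1.07) gave 4.98 to 16.3 CPM. Of 8 tested, 7 were positive, with a median of 0.67; edgeR called none, DESeq2 called end-3 higher (1.69, adjusted p = 0.00718), and unadjusted p values under 0.05 belonged to 1 higher and 1 lower gene. The 6 yolk protein genes shared the negative sign of the telomere genes, with a median log2 fold change of -0.58 and none called by either tool or at an unadjusted p under 0.05. Of 12 cuticle collagen genes edgeR called 1 higher (sqt-1, log2 fold change 3.89, adjusted p = 0.0382), the replicate block 4 and DESeq2 6, and 6 were higher at an unadjusted p under 0.05. In 6 of them, all positive, every mutant library lay above every wild-type library, as for 8.75% of all tested genes. The other 6 had negative log2 fold changes, from -1.89 for dpy-2 to -0.26 for col-19, and none was called lower. For sqt-3, dpy-2, dpy-3, dpy-7 and dpy-10, wild-type replicate 1 stood far above every other library. In dpy-2 it held 37.8 CPM, against 2.22 and 4.77 in wild-type replicates 2 and 3 and 2.56 to 5.14 in the mutant. These negative values thus do not describe the wild-type group as a whole. For col-19, wild-type replicate 1 was the lowest library. The groups likewise did not overlap, with the mutant above, in 12 of 14 sperm, 5 of 15 germline and 1 of 8 embryo markers tested. In the oocyte and yolk lists no gene did so. The sums of the 12 cuticle genes, mostly col-19, ran from 621.3 to 1202 CPM in wild-type and from 637.0 to 896.5 CPM in the mutant. Over all tested genes, in either direction, edgeR called 0.345%, the replicate block 1.45% and DESeq2 3.73%, and 9.56% had an unadjusted p under 0.05. No marker of these 6 lists was at 0 in all libraries. The part of tissue and stage composition in the values of the telomere genes was not tested, and in whole animals fewer cells of a type and less RNA per cell cannot be told apart.

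Other genes that act at telomeres or on DNA ends were taken from 6 lists with 70 genes. Of these, 69 were tested and none was called by edgeR, with 2 at an unadjusted p under 0.05, both higher. DESeq2 called 1, rad-50. Among all tested genes edgeR called 0.345% and DESeq2 3.73%, and 9.56% had an unadjusted p under 0.05. The median log2 fold change of the 69 was 0.10, with 26 negative and 43 positive, where 52.5% of all tested genes were negative. Each list's own median lay between -0.002 and 0.17, above the -0.28 of the 6 telomere genes, and whether the lists differ from them was not tested.

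**Figure D5:**
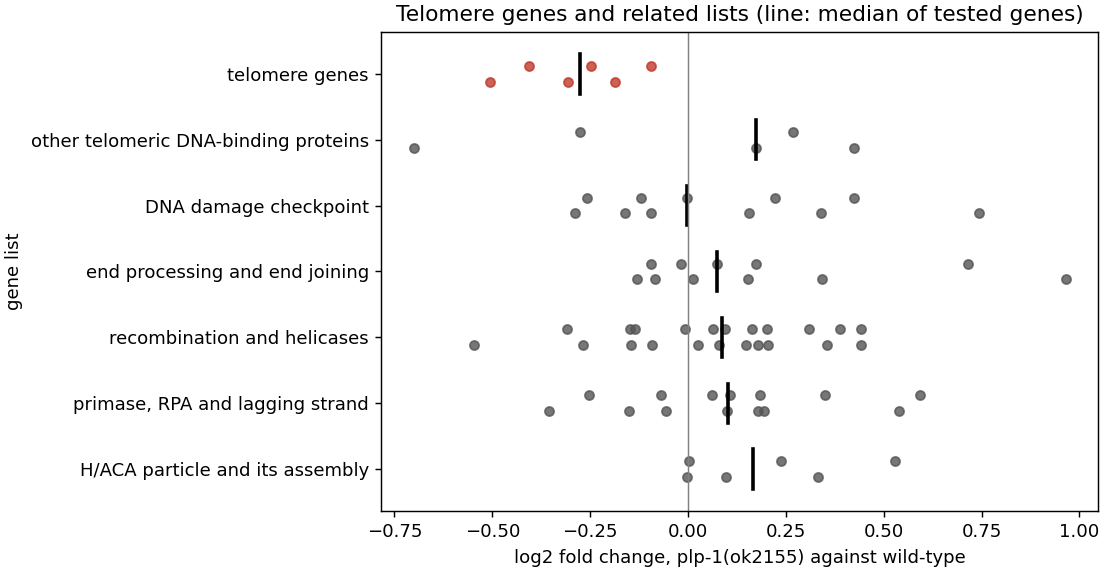
Log2 fold changes of the 6 telomere genes (red) and of the tested genes of 6 related lists (grey), plp-1(ok2155) against wild-type, with a black line at each median. The telomere genes lie between -0.51 and -0.10, while every related list has genes on both sides of 0; the largest value is that of rad-50, at 0.97.

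Other proteins that bind telomeric DNA include TEBP-1 and TEBP-2, which coat the double-stranded repeats and are listed in the table under the older names R06A4.2 and T12E12.3. Their log2 fold changes were 0.17 (edgeR adjusted p = 0.906) and 0.27 (0.814). The hnRNP A1 homologue hrp-1 stood at 0.42 (0.673), the HMG-box gene hmg-5 at -0.28 (0.776), and ceh-37, a homeobox gene whose product binds telomeric repeats, at -0.70 (0.682). Levels of ceh-37 were low, at 7.16 ± 3.07 CPM in wild-type and 4.41 ± 0.601 CPM in the mutant (SD, n = 3 each).

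The checkpoint partners of mrt-2 are hus-1 and hpr-9, the other subunits of the 9-1-1 clamp, and hpr-17, which is related to the protein that loads it. They stood at -0.12, 0.22 and -0.26 (edgeR adjusted p = 0.918, 0.874 and 0.829). Of the list's 11 tested genes 6 were negative and 5 positive. The smallest p values belonged to the checkpoint kinase gene chk-1 at 0.43 (0.712), the cell death activator egl-1 at 0.74 (0.712), atl-1, the ATR kinase that the clamp activates, at 0.34 (0.716), and tim-1 at -0.29 (0.808). The gene ced-13 was the untested one, with 0 counts in all wild-type libraries and 2 in 1 mutant library.

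Among 11 genes of end processing and end joining, rad-50, a subunit of the complex that holds and trims broken ends, had the smallest p. It rose in DESeq2 (adjusted p = 0.0438) but was not called by edgeR, where its log2 fold change of 0.97 (SE 0.26) had an adjusted p of 0.203, or 0.0773 with the replicate block. Its levels were 151.7 ± 29.1 CPM in wild-type and 296.3 ± 47.6 CPM in the mutant (SD, n = 3 each), and the groups did not overlap, as for 8.75% of all genes with the mutant above. Its partner mre-11 stood at 0.15 (0.909). The poly(ADP-ribose) polymerase gene parp-1 was at 0.72 (0.587), the end-joining polymerase gene polq-1 at 0.34 (0.737), and lig-4, the ligase of end joining, at -0.13 (0.906).

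Of 22 recombination and helicase genes, 8 were negative and 14 positive. Among them rfs-1, a RAD-51 paralogue, stood at -0.55 (edgeR adjusted p = 0.67). Its groups did not overlap, as for 5.49% of all genes with the mutant below, but the nearest libraries were almost tied at 10.07 and 10.08 CPM. The helicase genes dog-1, which unwinds G-rich DNA, and him-6, the BLM homologue, were at 0.44 (0.71) and 0.39 (0.753), and brd-1, the partner of BRC-1, at 0.44 (0.712). The helicase gene rtel-1 stood at -0.15 (0.882).

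The strand opposite to the one telomerase extends is filled in by DNA polymerase alpha and primase. The polymerase gene pola-1 was at 0.59 (edgeR adjusted p = 0.622), the sliding clamp gene pcn-1 at 0.54 (0.654), the primase gene pri-2 at 0.35 (0.765) and the clamp loader gene rfc-4 at -0.36 (0.769), the smallest p values of 14 genes. The H/ACA particle is a protein assembly that in mammals also stabilises the telomerase RNA. Of its genes and those of its assembly, Y48A6B.3 had the smallest p, at 0.53 (0.492), followed by K01G5.5 at 0.33 (0.744), ruvb-1 at 0.24 (0.817) and Y66H1A.4 at 0.10 (0.924).

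For each of the 6 genes, the 2 genes most like it were those with the highest Pearson correlation of log2 CPM over the 6 libraries, among the 9210 tested genes that averaged 5 CPM or more. They were C46A5.6 and prpf-4 for trt-1, glod-4 and T23G11.4 for pot-1, Y38H8A.7 and fbxc-47 for pot-2, M117.6 and abhd-12 for pot-3, F56G4.4 and Y37E11AM.2 for mrt-1, and R10H10.7 and rde-4 for mrt-2. All 12 values lay between 0.991 and 0.998, over libraries that share their scaling and their division into genotypes. With so few libraries such likeness is common, since 156 to 443 of the genes had a correlation over 0.9 with a given telomere gene, and none of the 12 was called between the groups (edgeR adjusted p from 0.576 to 0.95).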

How the data were processed

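The authors deposited, for each of 6 libraries, an estimated count and an FPKM value per gene and per transcript. The submitters' processing notes name StringTie 1.3.4d, HISAT2 2.1.0, Trimmomatic 0.38, Bowtie2 2.3.4.1, FastQC 0.11.7 and DESeq2 without saying what each did. Positions come from the Ensembl annotation of WBcel235, the assembly in the file labels. Checked against FPKM and length, 100% of low transcript counts lay 0 to 1 above the implied estimate (tolerance 0.01), so the deposited counts had been rounded up, and 100% of gene counts equalled the sum of their transcripts. Lengths were multiples of 3 in 100% of mRNA models, so FPKM refers to coding length.

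The whole counts entered as deposited. The 24 entries without a symbol, 0.0024% to 0.0246% of a library's counts, were left out. Genes passed edgeR's filterByExpr and were tested with the quasi-likelihood test (edgeR 4.0.16 under R 4.3.3) on a model of group alone, adjusted over all 15090 genes, or 20551 transcripts. Each standard error is the log2 fold change divided by the root of F, and intervals use the t distribution with the moderated degrees of freedom. Log2 CPM used a prior count of 2. DESeq2 1.42.0 and other settings were alternatives. The procedure was tested on simulated data in which all genes had the same spread and no library stood apart. How well it finds changes in the present libraries is not shown by that. Each edgeR p-value sets the difference between the groups against the spread between these libraries, moderated over all tested genes or transcripts.

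The members, the lists and the tests were chosen with earlier results of these data known. Named were the 6 genes, plp-1, up to 4 genes of each related list with the smallest p, the 2 genes most like each member and genes overlapping a member. The genes mre-11, rtel-1, tebp-1, hus-1, hpr-9, hpr-17 and ced-13 were added as partners or to complete a count. Single marker genes, such as elt-7, end-3 and the cuticle collagens, followed no such rule and were named for their values. List genes were matched by symbol, or by gene ID for 4 that have since been renamed. Both groups use replicate numbers 1 to 3. Libraries of the same number deviated together from their groups, with correlations over genes of 0.28, 0.21 and 0.36, all above 0.1. Pairing by number was thus read from the data and not from a statement in the labels. It entered only the replicate block and the permutation within pairs, while the main tests, their intervals and p-values ignored it.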

Additional observations from a re-analysis of the deposited data

How the results depend on the processing

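No telomere gene was called under any of 13 alternatives, with adjusted p from 0.279 upward, and 76 of 78 values kept their negative sign; the exceptions were mrt-1 without wild-type replicate 1 (0.001) and without plp-1(ok2155) replicate 3 (0.03). With 1 library left out, log2 fold changes ran from -0.45 to -0.25 for trt-1, -0.61 to -0.26 for pot-1, -0.75 to -0.35 for pot-2, -0.39 to -0.21 for pot-3, -0.24 to 0.03 for mrt-1 and -0.29 to -0.10 for mrt-2. No scaling moved the median of all genes by over 0.1. The replicate block gave -0.30, -0.37, -0.45, -0.24, -0.13 and -0.20 for trt-1, pot-1, pot-2, pot-3, mrt-1 and mrt-2 and changed no call among them.

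Counts over all genes depended on the setting. Against 40 higher and 12 lower genes, DESeq2 called 463 and 100, the replicate block 155 and 64, unscaled library sizes 23 higher, and leaving out 1 library 0 to 18 higher and 1 to 5 lower. Against 9 higher and 3 lower transcripts, DESeq2 called 415 and 114, DESeq2's size factors and upper-quartile scaling 14 higher each, the block 0 and 0, and leaving out 1 library 0 to 21 and 0 to 3. Of the related lists, DESeq2 called 1 gene higher against 0, and leaving out 1 library 0. The cause was not tested. Unscaled library sizes were chosen after seeing the data. Each telomere gene had 593 counts or more in each library, and low counts limit genes such as ced-13, with 2 in all.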
